A study of Mus musculus with 22 samples.

Results

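The comparison described here is that of fully grown germinal vesicle (GV) oocytes homozygous for the Dicer ΔMT allele with wild-type GV oocytes. Its members are the 4 libraries labelled Dicer ΔMT/ΔMT and the 3 labelled Dicer WT/WT of the single-end run, 7 of the 22 samples in the series, chosen by genotype and run and not by any measured value. All were made from pooled GV oocytes of C57BL/6 females by the same amplification kit, the labels give no age for them, and no treatment separates the groups. Whether females were superovulated is not given for single libraries, and the labels do not say that replicates came from separate animals, so p-values measure the spread between these samples, which may be technical. A single heterozygous library (ΔMT/WT) and 3 libraries of another homozygous Dicer mutant, SOM/SOM, made to lack the same oocyte isoform, come from the same run; SOM/SOM also enters the estimate of the spread, and values of either are given where they are named.

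Dicer cuts long double-stranded RNA into small interfering RNAs (siRNAs) and microRNA precursors into microRNAs. In mouse oocytes an MT retrotransposon inserted in the Dicer1 gene provides a promoter for a shorter isoform without the N-terminal part of the helicase domain, which processes long double-stranded RNA more efficiently than the full-length enzyme. Oocyte siRNAs come from retrotransposons and from pseudogene transcripts that pair with the mRNA of their parent gene, so mRNAs of protein-coding genes can be cut, whereas microRNAs are known for a weak effect in oocytes. Fully grown GV oocytes are transcriptionally quiet and live on stored maternal mRNA, which later serves meiosis and the first embryonic divisions. The ΔMT allele lacks that promoter in every cell. It keeps full-length Dicer, and it keeps another MT element of the same intron, which can still start a truncated transcript.

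The places of both MT-derived first exons are shown by the forward primers that the study used for their transcripts, written in lower case, 5′ to 3′. The first lies in the MTC-derived exon that the deletion removes and the second in the MTA-derived exon that the allele keeps:
mDcr_AltE1_Fwd: ctctgccttcaggttctgacttcc
mDcr_AltE2_Fwd: actgctttggtgatcaacagc
On GRCm38 the first matches chr12:104727330-104727353 and the second chr12:104726302-104726322, both on the minus strand and both inside intron 6 of Dicer1 (chr12:104724071-104728332), between exon 6 (chr12:104728333-104728493) and exon 7 (chr12:104723902-104724070). Neither lies in an exon counted for Dicer1. The Dicer1 counts below sum over all its exons, those upstream of intron 6, which only the full-length transcript holds, and those downstream, which the isoforms share, so they do not separate the isoforms.

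Levels are given in CPM, counts scaled to the same effective library size, which are not corrected for gene length and compare libraries and not genes. Dicer1 mRNA was measured at 1003, 1057 and 1001 CPM in wild type and at 536, 479, 428 and 509 CPM in ΔMT/ΔMT. All 4 mutant libraries lay far below all wild-type libraries, and the groups did not overlap. Dicer1 fell to 47.8% of its wild-type mean (log2 fold change −1.06, SE 0.10, adjusted p = 8.47e-05 by edgeR's quasi-likelihood test; exact two-sided permutation p = 0.0286, the smallest that the 35 ways to choose the samples allow). The ΔMT/WT library lay between the groups at 723 CPM, 70.9% of the wild-type mean. The reduced level of the targeted gene matches the labels of all 8 libraries.

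Total counts per library were 60660215 to 69310021 in wild type and 49106080 to 83243024 in ΔMT/ΔMT, so that 3 counts, taken as the floor of detection, correspond to 0.0360 to 0.0611 CPM. Such floors cover counting error only. Some libraries of the run stand apart. SOM/SOM replicate 3 had 6468380 counts. The rRNA-like gene Gm42418 took 1.86% of counts in it, 1.30% in SOM/SOM replicate 1 and 0.775% in ΔMT/ΔMT replicate 4, against 0.516% to 0.560% in the other ΔMT/ΔMT libraries; the SOM/SOM libraries enter the estimate of the spread and not the means of the groups compared here. ΔMT/ΔMT replicate 2 was the highest of the 7 libraries for 11 of 22 tested markers of granulosa and cumulus cells. Inhba, which encodes an inhibin subunit, was at 45.1 CPM in it, beside 14.5, 30.3 and 7.73 CPM in the other mutant libraries and 7.82, 6.17 and 7.62 CPM in wild type; the part of these markers in the results was not tested. Of 14 oocyte markers, 0 were called higher and 1, Mos, lower, and their summed level was 14340 to 16710 CPM in wild type and 14670 to 16130 CPM in ΔMT/ΔMT. Markers of granulosa and cumulus cells summed to 299 to 316 CPM in wild type and 230 to 348 CPM in the mutant. Most of this sum was Serpine2, at 186 to 202 CPM in wild type and 136 to 183 CPM in the mutant. The sum thus says little about the other markers. Over the 22 tested, the median log2 fold change was 0.24, with quartiles of −0.31 and 0.93. Of the 22, 1 was called higher (Lhcgr, 0 without ΔMT/ΔMT replicate 2) and 1 lower (Has2). Of all 24, 1, Tnfaip6, was at or under 3 counts in all 7 libraries. Markers of theca and stroma (8 of 13 tested) gave 0 calls, and those of blood and endothelium (8 of 16 tested) gave 1 lower call, Kdr, with the 4 globin genes at or under 3 counts in all 7 libraries. In such bulk samples, fewer cells of a type and less RNA per cell cannot be told apart.

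In the test over 23151 genes, those with an adjusted p under 0.05 count as called. Of these genes, 1866 were called higher (8.06%) and 1690 lower (7.3%) in ΔMT/ΔMT, and these shares are the background for every count below. Without adjustment, 6828 genes had a p under 0.05. Rises were larger than falls. The median size of a called rise was 1.08 on the log2 scale and that of a called fall 0.69; 283 rises but 81 falls reached 2 log2 units. Genes that rose came from low levels, with a median of 3.46 CPM in wild type, and those that fell from higher ones, with a median of 18.7 CPM. The shares thus changed with level. Of protein-coding genes under 1 CPM in wild type, 8% were called higher and 1.09% lower. At 10 to 100 CPM the shares were 7.83% and 12.95%, and at 100 CPM or more 5.24% and 13.1%. A gene low in wild type could pass the filter on low counts by its counts in a mutant alone. The wild-type level also enters the fold change, so the shares by level are not independent of the direction of the calls. Of the genes called higher, 64 were at or under 3 counts in all wild-type libraries. In sum, the genes called higher went from 52590 to 84690 CPM and those called lower from 112900 to 80530 CPM. The libraries of both groups did not overlap for 1839 of the genes called higher and 1665 of those called lower; of all 23151 genes, called or not, 3861 lay above all wild-type libraries in every mutant library and 3907 below. The median log2 fold change of all genes tested was 0.01.

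**Figure D1:**
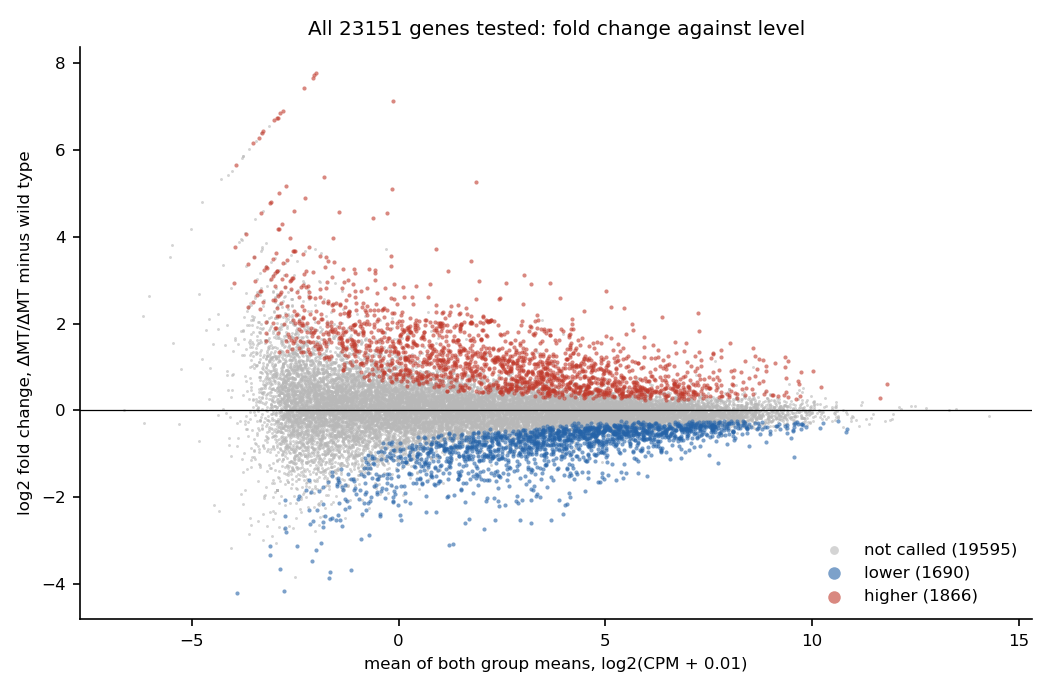
Log2 fold change (ΔMT/ΔMT minus wild type, vertical axis) of each gene tested against its level, the log2 of the mean of both group means in CPM (horizontal axis). Red points are the 1866 genes called higher, blue points the 1690 called lower and grey points those not called; the called rises spread farther from 0 than the called falls, and mostly at low levels.

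The counts of calls depended on single libraries. Leaving out wild-type replicate 1 gave 2203 calls and leaving out wild-type replicate 2 gave 2205, whereas 4858 were called without the shallow SOM/SOM replicate 3. The number of lower calls moved by more than 1.5 times for 5 libraries, to 920, 915 and 1096 without wild-type replicate 1, 2 or 3 and to 1070 and 1035 without ΔMT/ΔMT replicate 2 or 3. Without ΔMT/ΔMT replicate 2, the library with the most granulosa marker signal, 2443 genes were called, 1373 higher and 1070 lower; the kinetochore, tubulin and stress-response lists then held 6, 5 and 9 rises and the lists of oocyte-follicle signalling and of the matrix 4 falls each. The share of all calls that were rises was 52.5%, and it lay between 48.9% and 59.9% over all alternatives.

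The mRNAs that define the oocyte were mostly not called. Gdf9, an oocyte growth factor of the follicle, was at 4133, 3826 and 4201 CPM in wild type and at 3886, 3499, 3911 and 4033 CPM in ΔMT/ΔMT, and the groups overlapped (log2 fold change −0.08, SE 0.08, adjusted p = 0.524 by edgeR). A list of 12 genes held members of the subcortical maternal complex, which early embryos need, and other oocyte Nlrp genes. Of these 12, edgeR called 0 in either direction (1 at an unadjusted p under 0.05, 0 by DESeq2). It called 2 lower without SOM/SOM replicate 3 and with both groups alone. The median log2 fold change of the 12 was −0.10. Nlrp5 went from 1455 ± 95.5 CPM (SD, n = 3) to 1584 ± 186 CPM (SD, n = 4), Padi6 from 1708 ± 144 to 1717 ± 110 and Zbed3 from 10180 ± 553 to 10200 ± 593. Of 11 genes of the zona pellucida and gamete fusion, edgeR called 0, also at an unadjusted p under 0.05 and by DESeq2, but 1 lower without SOM/SOM replicate 3 and 2 with both groups alone; Zp3, the sperm-binding zona protein, was at 1505 ± 132 and 1437 ± 102 CPM. None of the 14 Nlrp genes was called by edgeR (3 at an unadjusted p under 0.05, 2 by DESeq2). It called 3 lower without SOM/SOM replicate 3 and with both groups alone. Several of the 14 are also in the list of the subcortical maternal complex, so these counts are not separate. A lack of calls in these small lists does not show that the levels were equal.

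Among 20 oocyte transcription factors and related regulators, 1 rose and 3 fell. Sp110, a nuclear body protein that is also one of the study's potential siRNA targets, was at 138, 123.1 and 140 CPM in wild type and at 296, 292, 325 and 335 CPM in ΔMT/ΔMT. All mutant libraries lay above all wild-type libraries (log2 fold change 1.22, SE 0.08, adjusted p = 2.45e-05 by edgeR); Sp110 has a close copy and overlaps G530012D18Rik on the other strand, which was called higher too, so its reads may be shared. Sebox, a homeobox gene of the oocyte, fell from 75.6 ± 2.29 to 52.5 ± 5.38 CPM (log2 fold change −0.53, adjusted p = 0.00834). Foxo3, a forkhead factor that keeps primordial follicles dormant, fell by 0.33 on the log2 scale (adjusted p = 0.0381), a call that 9 of 18 alternatives lost, and Sall4 fell by 0.32. Without wild-type replicate 1 the falls of this list numbered 1. Among 31 genes of meiotic arrest and resumption, 3 rose and 1 fell; the falls numbered 0 without wild-type replicate 2 or 3 or ΔMT/ΔMT replicate 1 or 2, 5 without SOM/SOM replicate 3 and by DESeq2, and 7 with both groups alone. Fbxo5, an inhibitor of the anaphase-promoting complex, was at 68.2, 66.1 and 65.7 CPM in wild type and between 95.4 and 116 CPM in the 4 mutant libraries, without overlap (log2 fold change 0.69, SE 0.10, adjusted p = 0.000800). Ccna2, which encodes cyclin A2, rose by 0.54, and Ppp2r2a, a regulatory subunit of protein phosphatase 2A, by 0.41. Mos, the kinase that holds eggs in meiotic arrest, fell by 0.37 (adjusted p = 0.0259), a call that 7 of 18 alternatives lost. Wee2, the oocyte kinase that keeps Cdk1 inactive, was at 789 ± 30.9 and 799 ± 24.8 CPM and was not called.

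Lists of chromosome segregation differed in how many genes were called and in which direction. Of 34 kinetochore and spindle checkpoint genes, 9 were called higher (26.5%) and none lower (0 by edgeR, 3 at an unadjusted p under 0.05, 2 by DESeq2), with a median log2 fold change of 0.04 over the list, so that the rises were those of single members. The count of rises was 6 without any 1 of wild-type replicates 1 and 3 and ΔMT/ΔMT replicate 2, and 11 with the stricter filter of 5 CPM in 3 libraries; 3 genes were called lower without SOM/SOM replicate 3 and with both groups alone. None of the 34 is among the study's potential siRNA targets. Knl1, the scaffold of the outer kinetochore that recruits checkpoint proteins, was at 128, 127 and 114 CPM in wild type and at 357, 347, 309 and 270 CPM in ΔMT/ΔMT. Every mutant library had over 2 times the level of every wild-type library (log2 fold change 1.38, SE 0.11, adjusted p = 3.99e-05 by edgeR), and the ΔMT/WT library, at 175 CPM, lay between the groups.

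Of the Ska complex, which couples kinetochores to microtubule ends, Ska2 and Ska3 rose and Ska1, at 106 and 111 CPM on average, was not called. Ska2 went from 7.99, 5.88 and 7.44 CPM to 14.7, 15.2, 16.2 and 14.1 CPM (log2 fold change 1.08, adjusted p = 0.000305), and Ska3 from 116, 113 and 104 CPM to 214, 195, 193 and 182 CPM (0.82, adjusted p = 0.000211), neither with overlap. Cenpk, of the inner kinetochore, rose from 14.4 ± 0.817 to 26.5 ± 1.92 CPM, and Mad2l1bp, which helps to silence the checkpoint, by 1.07 on the log2 scale. The other 4 rises, of Cenpt, Ndc80, Cenpn and Zwilch, were of 0.55, 0.39, 0.33 and 0.29. Bub1b, the checkpoint kinase with the most counts of the list in wild type, was at 1533 ± 31.6 and 1491 ± 77.2 CPM and was not called. Of 27 cohesin and condensin genes, 1 rose, Stag3, a meiotic cohesin subunit (4.49 ± 0.406 to 8.70 ± 0.590 CPM), and 2 fell, Stag1 and Pds5b, by 0.62 each. The call of Pds5b was lost in 4 of 18 alternatives. Over single omissions the falls of this list numbered from 1, without wild-type replicate 1 or 3 or ΔMT/ΔMT replicate 2 or 3, to 5, without SOM/SOM replicate 3, and the rises 1 to 3; DESeq2 called 6 lower and 3 higher.

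The 51 genes of the spindle and its poles went both ways, with 8 higher (15.7%) and 7 lower (13.7%). Of the 8 that rose, 6 are among the study's potential siRNA targets, of which 8 are in this list, and of the 7 that fell, 0 are. Prc1, which bundles microtubules in the central spindle, was at 327, 328 and 332 CPM in wild type and at 586, 646, 639 and 585 CPM in ΔMT/ΔMT. The wild-type libraries lay within 5 CPM of each other and all mutant libraries far above them (log2 fold change 0.90, SE 0.08, adjusted p = 4.19e-05), while the ΔMT/WT library had 353 CPM. Kif4, the kinesin that Prc1 recruits, rose from 627 ± 28.4 to 997 ± 32.7 CPM (0.67, adjusted p = 0.000950). Dynll1, a dynein light chain, went from 83.9, 80.4 and 89.5 CPM to 195, 212, 211 and 190 CPM (1.25, adjusted p = 8.93e-05), again without overlap. Rangap1, the GTPase activator of Ran, showed the largest rise of the list (log2 fold change 2.37, SE 0.20, adjusted p = 4.60e-05).

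The 7 spindle genes that fell were Haus1, of the augmin complex that branches microtubules (10.5 ± 1.16 to 4.48 ± 0.536 CPM, log2 fold change −1.23, adjusted p = 0.00164), Tubgcp3, of the γ-tubulin complex (−0.58), Aurkc and Aurka, mitotic and meiotic kinases (−0.45 and −0.27), Kif18a and Kif11, kinesins of chromosome alignment and pole separation (−0.41 and −0.38), and Kif23, of the midzone (−0.30). The lower calls of this list were the less stable, with 6 of the 10 omissions of 1 library moving their count by over 1.5 times, down to 2 without wild-type replicate 1. Of 18 tubulin genes, 6 rose (33.3%) and 0 fell (1 at an unadjusted p under 0.05, 1 by DESeq2), a count of 5 or 6 whichever library was left out. Tuba1c was at 102, 82.9 and 110 CPM in wild type and at 229, 205, 206 and 236 CPM in ΔMT/ΔMT. The mutant libraries lay about 1 log2 unit higher, with no overlap (1.16, SE 0.11, adjusted p = 7.40e-05). Tuba1a (1.14) and Tuba1b (1.03) are α-tubulins of nearly the same sequence, and Tuba1c has 10 close copies in the annotation, so these rises cannot be taken as separate. Of the 4 siRNA targets in the list, 3 rose. The β-tubulins Tubb5, Tubb4b and Tubb6 rose by 0.42, 0.37 and 0.36, the last with the call lost in 6 of 18 alternatives.

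**Figure D2:**
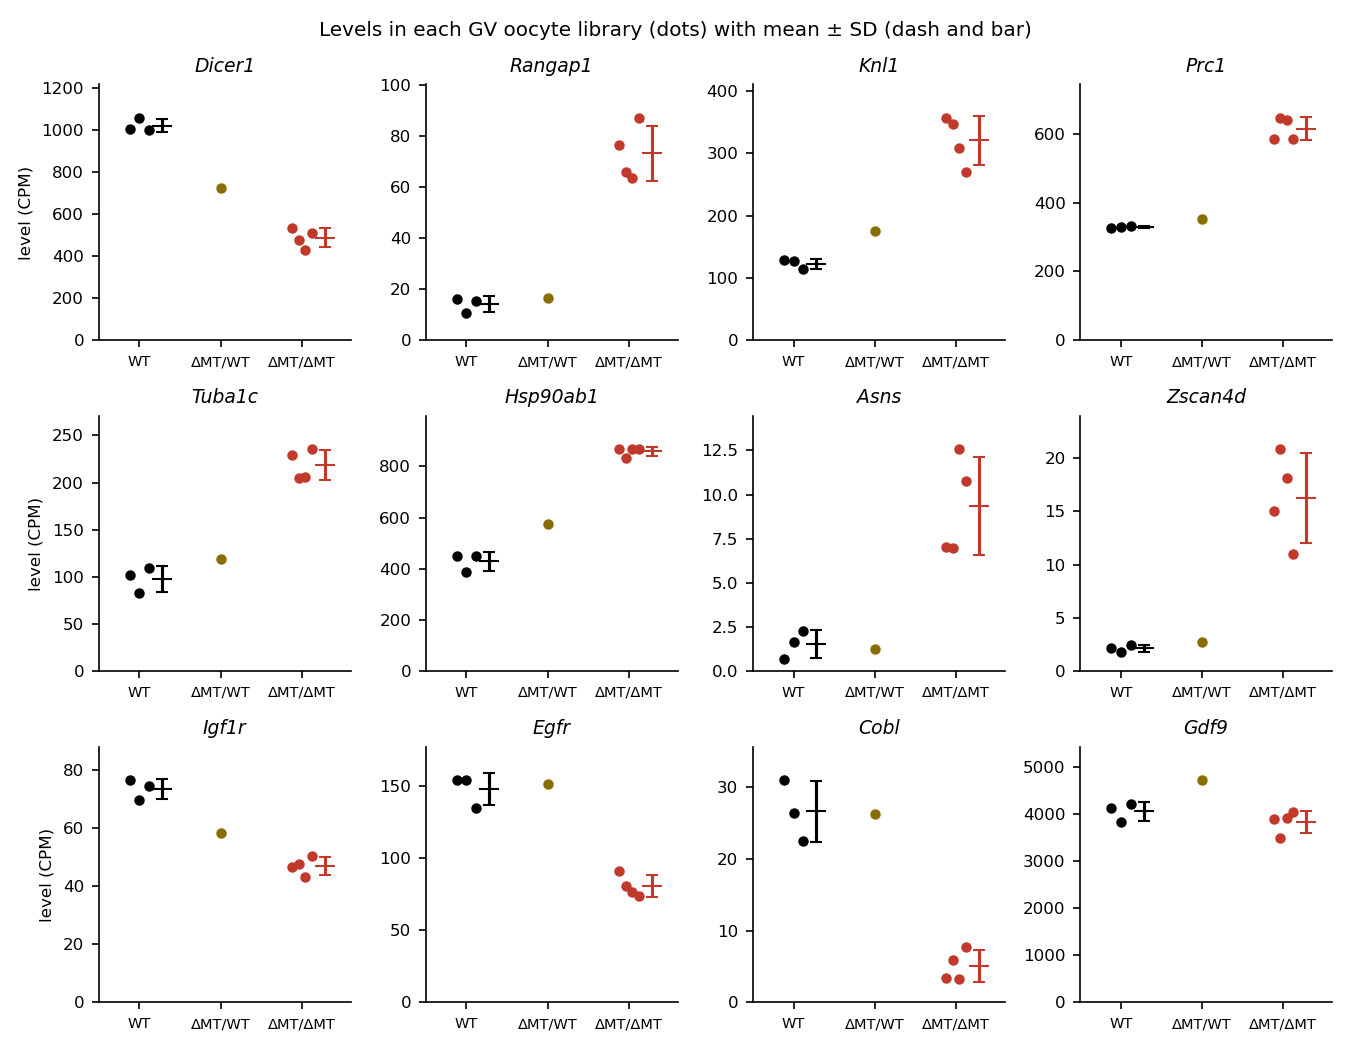
Level in CPM of 12 genes (vertical axes, from 0) in wild-type (black, 3 libraries), ΔMT/WT (brown, 1 library) and ΔMT/ΔMT (red, 4 libraries) GV oocytes; dots are libraries, and the dash with its bar is the mean ± SD. Except for Gdf9, the dots of wild type and ΔMT/ΔMT do not overlap; for Dicer1 and Knl1 the ΔMT/WT library lies between them, at 723 and 175 CPM.

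Of 38 kinesin genes, 4 rose and 6 fell, but 6 of the 10 omissions moved the lower count by over 1.5 times, down to 1 without wild-type replicate 2. Kif5b, a heavy chain of conventional kinesin that overlaps Gm17036 on the other strand, went from 58.2, 62.7 and 59.8 CPM to 120, 120, 122.8 and 106 CPM without overlap (0.96, SE 0.09, adjusted p = 9.33e-05), and the related Kif5c fell from 114 ± 5.24 to 85.2 ± 3.56 CPM. Of 50 actins and actin regulators, 6 rose and 5 fell; the count of rises moved by over 1.5 times in 5 omissions, down to 1 without wild-type replicate 2. Lcp1, which bundles actin filaments, rose (log2 fold change 1.37, SE 0.13, adjusted p = 9.33e-05), as did the cytoplasmic actin Actg1 (24.0 ± 1.24 to 43.5 ± 0.917 CPM) and the formin Fmn1 (0.55). The smooth-muscle actin Actg2 fell by 3.09 on the log2 scale from a low level, Ezr, which links actin to the membrane, from 6.33 ± 1.66 to 3.15 ± 0.331 CPM, and Myh9, a non-muscle myosin, from 90.2 ± 3.54 to 61.8 ± 6.04 CPM. Cobl, an actin nucleator outside this list and one of the 8 largest falls of genes with at least 20 CPM in a group, was at 31.0, 26.4 and 22.5 CPM in wild type and at 3.42, 5.93, 3.20 and 7.76 CPM in the mutant. Its lowest wild-type library still had more than 2 times the highest mutant library (log2 fold change −2.38, SE 0.34, adjusted p = 0.00105).

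Of the receptors and surface molecules through which the oocyte meets its follicle, most were not called, and more were called lower than higher. Falls were also frequent among all coding genes with at least 10 CPM and transcripts of 5000 bases or more, at 20.01%. The part of level and transcript length in these lists was not tested. Of 24 genes of oocyte-follicle signalling, 6 fell (25%) and 0 rose (1 at an unadjusted p under 0.05, 1 by DESeq2), and the median log2 fold change of the list was −0.21. All 6 encode receptors. Egfr, the epidermal growth factor receptor, was at 154, 154 and 135 CPM in wild type and at 90.8, 80.7, 76.5 and 73.3 CPM in ΔMT/ΔMT. The groups did not overlap (log2 fold change −0.88, SE 0.10, adjusted p = 0.000257), and the ΔMT/WT library, at 151 CPM, lay within wild type. Igf1r, the receptor of insulin-like growth factor 1, was at 76.5, 69.6 and 74.3 CPM in wild type and at 46.5, 47.6, 43.2 and 50.5 CPM in the mutant. Its mutant values all lay below the wild-type values (−0.65, SE 0.10, adjusted p = 0.00127), and the ΔMT/WT library had 58.3 CPM. Kit, the receptor of the Kit ligand from granulosa cells, fell from 472 ± 3.26 to 354 ± 30.1 CPM (−0.41, adjusted p = 0.0138). The activin receptors Acvr1b and Acvr2b fell by 0.47 and 0.45, and Erbb4, at a low level, from 4.42 ± 0.907 to 0.515 ± 0.223 CPM (−3.08, adjusted p = 0.000365). The count of falls was 3 without wild-type replicate 2 and 4 without wild-type replicate 1 or ΔMT/ΔMT replicate 1 or 2, and it was 8 without SOM/SOM replicate 3 and 10 by DESeq2.

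Of 32 genes of the extracellular matrix and adhesion, 6 fell (18.8%) and 2 rose (6.25%), with a median of −0.18; the count of falls lay between 4 and 9 over single omissions. Itgb3, the integrin β3 subunit, was at 140, 139 and 146 CPM in wild type and at 69.9, 77.7, 83.0 and 89.6 CPM in ΔMT/ΔMT. No mutant library reached the lowest wild-type library (−0.82, SE 0.15, adjusted p = 0.00499). Hyaluronan synthases fell as well, Has3 from 66.8 ± 3.49 to 45.9 ± 3.22 CPM (−0.54, adjusted p = 0.00162) and Has2 from 1.05 ± 0.194 to 0.142 ± 0.0900 CPM (−2.86, adjusted p = 0.00420). Lama1, a laminin chain, fell by 0.95, and the integrins Itga8 and Itga9 by 0.51 and 0.24. The rises were of Itga3 (0.356 ± 0.0651 to 1.12 ± 0.219 CPM) and Mmp15, a membrane metalloprotease (2.999), both from low levels. Has2 is also a granulosa marker. The granulosa markers are given above, with a sum that is mostly Serpine2, and their part in these values was not tested.

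The study's own list of potential siRNA targets, chosen from small RNA data of other studies, held 196 tested genes. Of these, 67 were higher (34.2%) and 10 lower (5.10%), beside 8.06% and 7.3% of all genes tested. Single omissions gave 62 to 96 calls, with falls from 6 without wild-type replicate 1 to 16 without SOM/SOM replicate 3. Rises of this list reached into many of the functions above and below. They were 6 of the 8 rises in the spindle list, 3 of 6 in the tubulins and 3 of 4 in the kinesins. Among ubiquitin enzymes they were 5 of 13, among kinase and phosphatase genes 3 of 17 and among cytosolic ribosomal protein genes 3 of 8. In the same order, these lists hold 8, 4, 4, 7, 4 and 5 of the targets. None of the tested kinetochore and chemoreceptor genes is a potential siRNA target, and the 2 stress-response genes that are were not called higher. These are counts of shared members and were not tested.

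In genes of small RNA pathways the share called in either direction was near that of all genes. Of 17 genes of the small RNA machinery, 3 fell and 0 rose (0 also at an unadjusted p under 0.05 and by DESeq2): Dicer1 itself, Dgcr8, the RNA-binding partner of Drosha (18.8 ± 1.39 to 14.0 ± 0.447 CPM, −0.42, adjusted p = 0.0225), and Ddx5, a helicase of the same complex (−0.42, adjusted p = 0.0106). The count of falls includes Dicer1, the gene that the ΔMT allele itself changes. It was 1 without wild-type replicate 3 and 5 without SOM/SOM replicate 3. Of 23 piRNA pathway genes, 2 rose and 2 fell. Mael, which acts in retrotransposon silencing, was at 36.3, 44.8 and 44.0 CPM in wild type and at 67.5, 70.1, 63.9 and 60.1 CPM in the mutant. The groups stood apart (0.65, SE 0.13, adjusted p = 0.00717). Fkbp6 rose by 0.55, Pnldc1, the piRNA trimmer, fell by 0.55, and Tdrd6 fell from 2.22 ± 0.377 to 1.06 ± 0.442 CPM, a call that 5 of 17 alternatives lost; 6 of the 10 omissions moved the count of falls, down to 0 without wild-type replicate 1. Tdrd1, the member with the most counts, was at 1599 ± 43.5 and 1437 ± 30.4 CPM and was not called.

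Of 23 genes of the sensing and editing of double-stranded RNA, 4 fell (17.4%) and 1 rose (4.35%), with a median of −0.18. Ddx58, which encodes the sensor RIG-I, was at 24.9, 26.1 and 28.7 CPM in wild type and at 15.7, 15.1, 15.7 and 14.4 CPM in ΔMT/ΔMT. All mutant values lay below all wild-type values (−0.80, SE 0.13, adjusted p = 0.00182). Tlr3 and Oas1f fell by 0.43 and 0.48, whereas Oas3, an oligoadenylate synthetase, rose from 12.1 ± 1.46 to 20.4 ± 3.53 CPM (0.75, adjusted p = 0.00817). The count of falls moved by over 1.5 times in 5 omissions, down to 2 without wild-type replicate 1. Of 20 interferon-stimulated genes, 1 rose, Ifi44, at under 1 CPM in all libraries, and 1 fell, Gbp8 (1.22 ± 0.157 to 0.222 ± 0.100 CPM). Of 30 genes of chromatin that silences retrotransposons, 3 rose and 3 fell. Pphln1, of the HUSH silencing complex, was at 237, 232 and 231 CPM in wild type and at 617, 559, 504 and 544 CPM in the mutant. Wild-type libraries differed by a few CPM and the mutant ones lay at over 2 times their level (1.25, SE 0.10, adjusted p = 3.39e-05). Ehmt2, a histone H3 lysine 9 methyltransferase, rose by 1.502 from under 1 CPM and Tet2 by 0.53, while Tet1, which oxidises methylcytosine, fell from 13.2 ± 2.78 to 6.82 ± 1.12 CPM (−0.96, adjusted p = 0.00384) and Ehmt1 and Morc3 by 0.36 and 0.37. The lower count of this list was 1 without wild-type replicate 1 and 8 without SOM/SOM replicate 3.

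Genes for proteins that store or destroy maternal mRNA were called lower more often than higher. The same held for all protein-coding genes at 10 to 100 CPM in wild type (12.95% lower, 7.83% higher) and at 100 CPM or more (13.1% and 5.24%). Of 30 genes of mRNA storage, 5 fell (16.7%) and 0 rose (0 also at an unadjusted p under 0.05 and by DESeq2), with a median of −0.14. Cpeb1, which controls polyadenylation in meiosis, was at 912, 911 and 991 CPM in wild type and at 721, 735, 794 and 755 CPM in ΔMT/ΔMT. The groups did not overlap (−0.32, SE 0.09, adjusted p = 0.0283). Igf2bp3 fell by 0.52, Nanos1 by 0.51 and Lsm14b by 0.28. Without wild-type replicate 1, 1 of the 5 calls was left, and 7 of the 10 omissions moved the count by over 1.5 times. Of 48 genes of mRNA decay, 6 fell and 4 rose. Cnot1, the scaffold of the CCR4-NOT deadenylase, was at 575, 583 and 591 CPM in wild type and at 441, 410, 409 and 414 CPM in the mutant. Its mutant values all lay well under the wild-type ones (−0.48, SE 0.08, adjusted p = 0.00198); 4930513N10Rik, which overlaps it on the other strand, fell as well. Cnot2, Cnot6, Pan3, Edc4 and Smg1, of deadenylation, decapping and nonsense-mediated decay, fell by 0.30, 0.39, 0.31, 0.45 and 0.34. The exosome subunits Exosc2 and Exosc4 rose by 1.07 and 0.72, the m6A reader Ythdf2 by 0.49 and Dis3l by 0.24. The count of falls in this list moved in 6 omissions, down to 2 without wild-type replicate 1.

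Of 35 genes of the integrated stress response, which Atf4 drives when translation initiation is restrained, 9 rose (25.7%) and 3 fell (8.57%), with a median of 0.20. Asns, the asparagine synthetase, was at 0.729, 1.69 and 2.29 CPM in wild type and at 7.05, 6.98, 12.6 and 10.8 CPM in ΔMT/ΔMT. The mutant libraries all lay above wild type but spread widely (2.58, SE 0.47, adjusted p = 0.00410). Cebpg, a partner of Atf4 in transcription, was at 111, 128 and 124 CPM and then at 182, 181, 199 and 171 CPM, without overlap (0.60, SE 0.11, adjusted p = 0.00403). Atf4 itself rose from 173 ± 6.20 to 238 ± 19.4 CPM (0.46, adjusted p = 0.0140) and Ddit3, which encodes CHOP, from 10.0 ± 1.73 to 17.1 ± 1.40 CPM (0.78). Psat1, of serine synthesis, rose by 2.57, Vldlr by 1.23, Sesn2 by 1.02 and Cebpb by 0.81. Fgf21, a secreted stress hormone, was at or under 3 counts in each wild-type library and at 1.06, 1.64, 2.73 and 1.77 CPM in the mutant. Phgdh, the first enzyme of serine synthesis, fell from 8.99 ± 0.490 to 6.11 ± 0.651 CPM; it has 7 close copies, and 8 of 18 alternatives lost the call. Ddit4 and Ppp1r15b fell by 0.44 and 0.34. Slc7a11, the member with the most counts, was at 639 ± 46.0 and 645 ± 36.9 CPM and was not called. The rises numbered 5 without wild-type replicate 2 and 6 to 10 in the other omissions, whereas the falls numbered 0 without wild-type replicate 1.

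Chaperones did not move together: of 35, 2 rose and 3 fell, with a median of −0.15. Hsp90ab1, a constitutive cytosolic chaperone, was at 451, 386 and 452 CPM in wild type and at 868, 831, 868 and 868 CPM in ΔMT/ΔMT. The mutant libraries were close to each other and well above wild type (log2 fold change 0.999, SE 0.08, adjusted p = 3.22e-05), with the ΔMT/WT library between at 575 CPM. Dnajb9, of the endoplasmic reticulum, rose by 0.81; Pdia4, Hspa9 and Ern1 fell by 0.41, 0.44 and 0.42, the latter pair in calls that 10 and 9 of 18 alternatives lost. The falls of this list numbered 1 without wild-type replicate 1 and 6 without SOM/SOM replicate 3. Of 33 apoptosis and DNA damage genes, 3 rose and 3 fell. Pmaip1, which encodes the death inducer NOXA, was at 0.238, 0.241 and 0.311 CPM in wild type and at 4.30, 4.98, 3.14 and 1.56 CPM in the mutant, and replicate 4 was the lowest of the mutant libraries but still 5 times above wild type (fitted log2 fold change 3.71, SE 0.44, adjusted p = 0.000310). Other death genes fell, Bcl2l11 from 72.8 ± 8.71 to 46.9 ± 1.36 CPM (−0.63) and Apaf1 from 9.13 ± 1.10 to 4.56 ± 0.627 CPM (−1.003). H2afx, the histone variant of DNA damage, rose by 0.88 and Trp63 by 0.33, whereas the recombinase Dmc1 fell by 0.85. The rises in this list numbered 1 without wild-type replicate 2.

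In metabolism, Gapdh stood out among 25 glycolysis genes, of which 2 rose and 1 fell. It was at 4.22, 3.40 and 3.63 CPM in wild type and at 15.3, 15.6, 15.8 and 16.4 CPM in ΔMT/ΔMT. Each mutant library had over 3 times the level of each wild-type library (2.07, SE 0.21, adjusted p = 0.000136), but Gapdh can share reads with its many pseudogenes, described below. Gpi1 rose from 48.9 ± 1.38 to 78.5 ± 3.64 CPM (0.68, adjusted p = 0.000632), and Ldhb, at 1570 ± 171 and 1555 ± 170 CPM, was not called. Of 34 genes of cholesterol and lipid metabolism, 5 fell and 2 rose. Idi1, of isoprenoid synthesis, fell from 11.5 ± 1.62 to 6.84 ± 0.674 CPM (−0.76, adjusted p = 0.00723). Elovl5 and Acly, of fatty acid synthesis, fell by 0.32 and 0.29, and Plin2, the coat of lipid droplets, rose from 6.33 ± 0.621 to 15.2 ± 0.514 CPM (1.26, adjusted p = 7.42e-05). The falls numbered 1 without wild-type replicate 2, and 7 of the 10 omissions moved their count by over 1.5 times.

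Genes of both ribosomes and of the respiratory chain held shares of rises near the background and few falls. Of 82 cytosolic ribosomal protein genes, 8 were called higher (9.76%) and 0 lower (0 also at an unadjusted p under 0.05 and by DESeq2), with a median of 0.20. The count ran from 2 without wild-type replicate 1 to 18 without SOM/SOM replicate 3. Rps23 showed the largest rise, from 5.83 ± 1.40 to 19.5 ± 1.22 CPM (1.74, SE 0.15, adjusted p = 5.50e-05), and the other 7 rose by 0.37 to 0.57; these genes share reads with many pseudogenes. Of 78 mitochondrial ribosomal protein genes, 10 rose (12.8%) and 1 fell (1.28%), with a median of 0.08 and 4 rises without ΔMT/ΔMT replicate 3 to 13 without SOM/SOM replicate 3. Mrpl9 was at 28.9, 27.5 and 29.9 CPM in wild type and at 85.7, 94.1, 99.1 and 94.0 CPM in ΔMT/ΔMT. Both groups were tight and far apart (1.70, SE 0.13, adjusted p = 3.24e-05), with the ΔMT/WT library between them at 46.1 CPM. Oaz3, which overlaps Mrpl9 on the other strand, was called higher too. Mrps31 fell from 87.8 ± 7.45 to 55.9 ± 1.89 CPM (−0.65, adjusted p = 0.000455). Of 80 nuclear genes of the respiratory chain, 6 rose (7.5%) and 1 fell (1.25%), with a median of 0.13, and 1 rise was left without wild-type replicate 1; Atp5g3, of the ATP synthase, rose from 5.63 ± 0.539 to 10.5 ± 1.02 CPM. The 13 genes that mitochondria encode had a median of 0.41, and edgeR called 0 of them (4 at an unadjusted p under 0.05, 3 by DESeq2). Their levels varied among replicates, as for mt-Co1, which was at 2587, 2219 and 1853 CPM in wild type and at 3347, 2901, 2110 and 1758 CPM in the mutant. Of 45 proteasome genes, 2 rose and 0 fell (0 also at an unadjusted p under 0.05 and by DESeq2), and the rises numbered 0 without wild-type replicate 1.

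The let-7 microRNAs, a conserved family that represses growth genes, are made by Dicer as well. The mature let-7a-5p is shown, as RefSeq gives it (chr13:48538239-48538260 on GRCm38.p6, minus strand), with its seed, bases 2 to 8, in capitals:
let-7a-5p: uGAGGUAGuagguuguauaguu
Of 25 known let-7 target genes, 2 rose and 4 fell, with a median of 0.00. The falls include Dicer1, the gene that the ΔMT allele itself changes. Hmga2, a chromatin protein and a potential siRNA target of the study, was at 45.0, 42.6 and 39.4 CPM in wild type and at 121, 109, 107 and 108 CPM in ΔMT/ΔMT. The groups were far apart (1.39, SE 0.08, adjusted p = 2.30e-05). Igf2bp1 rose from 1.05 ± 0.248 to 6.24 ± 1.76 CPM (2.57, SE 0.25, adjusted p = 9.93e-05). Dicer1, Lin28a and Igf2bp3 fell, the last pair by 0.46 and 0.52, and the falls of the list numbered 2 without wild-type replicate 1. Coding genes with at least 10 CPM in wild type were searched in the 3′ untranslated region of their longest coding transcript. The sequence sought, on the sense strand, was the complement of the seed, CTACCTC. It was present in 10.5% of the 532 genes called higher, 12.1% of the 977 called lower and 10.6% of the 6006 not called, against 10.8% of all 7515. Among those with untranslated regions of at least 3000 bases, 6.68% of the genes with the site were called higher and 17.1% lower, beside 6.90% and 19.1% of those without it.

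Broad gene families stayed near the background. Of 393 C2H2 zinc finger genes, 35 rose and 41 fell (16 without wild-type replicate 2); Zfp385b fell from 12.9, 12.9 and 13.4 CPM to 2.48, 1.59, 2.94 and 2.09 CPM without overlap (−2.52, SE 0.25, adjusted p = 0.000110), and Zfp57, the keeper of imprints, was at 2206 ± 133 and 2413 ± 188 CPM and was not called. Of 308 solute carriers, 26 rose (17 without wild-type replicate 1) and 27 fell (16 without wild-type replicate 2). Slc1a5, a glutamine transporter, rose from 0.158 ± 0.0855 to 1.58 ± 0.862 CPM (3.32), and Slc23a2, a vitamin C transporter, fell from 858 ± 62.3 to 629 ± 29.6 CPM (−0.45). Of 163 ubiquitin-conjugating and ligase genes, 13 rose and 17 fell (9 without wild-type replicate 3). Ube2r2, a conjugating enzyme, was at 23.8, 20.7 and 15.4 CPM in wild type and at 84.4, 85.0, 67.4 and 80.9 CPM in the mutant, over 2 times every wild-type value (1.99, SE 0.15, adjusted p = 2.63e-05). Fbxo40 fell from 76.4 ± 7.09 to 34.0 ± 3.88 CPM (−1.17). Of 153 kinase and phosphatase genes, 17 rose and 16 fell (11 and 9 without wild-type replicate 1), among them Ppp1r3e (1.10 ± 0.713 to 5.19 ± 0.893 CPM) and Map3k9 (8.39 ± 1.06 to 3.09 ± 0.325 CPM). Rab11b, a GTPase of recycling endosomes, rose from 17.0 ± 1.54 to 53.7 ± 4.93 CPM (1.66, adjusted p = 2.45e-05). Of 28 ubiquitin hydrolase and autophagy genes, 3 rose and 0 fell (2 at an unadjusted p under 0.05, 2 by DESeq2), and of 49 nuclear transport genes 3 rose and 2 fell (0 without wild-type replicate 1, 10 without SOM/SOM replicate 3).

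Of 30 imprinted genes, 4 rose and 3 fell, and growth factor and receptor went opposite ways. Igf2 was at 4.97, 5.41 and 3.47 CPM in wild type and at 9.95, 9.34, 9.72 and 10.6 CPM in ΔMT/ΔMT. All mutant values were near 2 times the wild-type mean, without overlap (1.10, SE 0.21, adjusted p = 0.00527). Igf2r, which clears IGF2, fell from 168 ± 11.9 to 108 ± 13.1 CPM (−0.64, adjusted p = 0.00866). Slc22a18, Sgce and the cell cycle inhibitor Cdkn1c rose by 2.27, 0.92 and 0.66, and Usp29, with Zim3 on the other strand, and Impact fell by 0.74 and 0.67. Of 1423 chemoreceptor genes, which encode odour and pheromone receptors, 1242 were removed for low counts, and a gene could pass by its counts in a mutant alone. Of the 181 tested, 32 rose (17.7%) and 9 fell (4.97%), with a median of 0.45. Nearly all were at low levels, and with a filter at 5 CPM 8 rises were left. Without wild-type replicate 1 there were 18. Of all tested genes under 1 CPM in wild type, 8.05% rose and 1.22% fell, with a median of 0.22. Olfr214 was at 9.80, 12.3 and 7.20 CPM in wild type and at 2.15, 2.78, 1.49 and 2.22 CPM in the mutant, against the direction of most (−2.17, SE 0.25, adjusted p = 0.000258). Of 65 replication-dependent histone genes, 3 rose and 0 fell (0 also at an unadjusted p under 0.05 and by DESeq2), with a median of 0.37; 20 rose without SOM/SOM replicate 3. Hist1h1e, a linker histone, rose from 4.45 ± 0.952 to 14.9 ± 3.23 CPM.

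**Figure D3:**
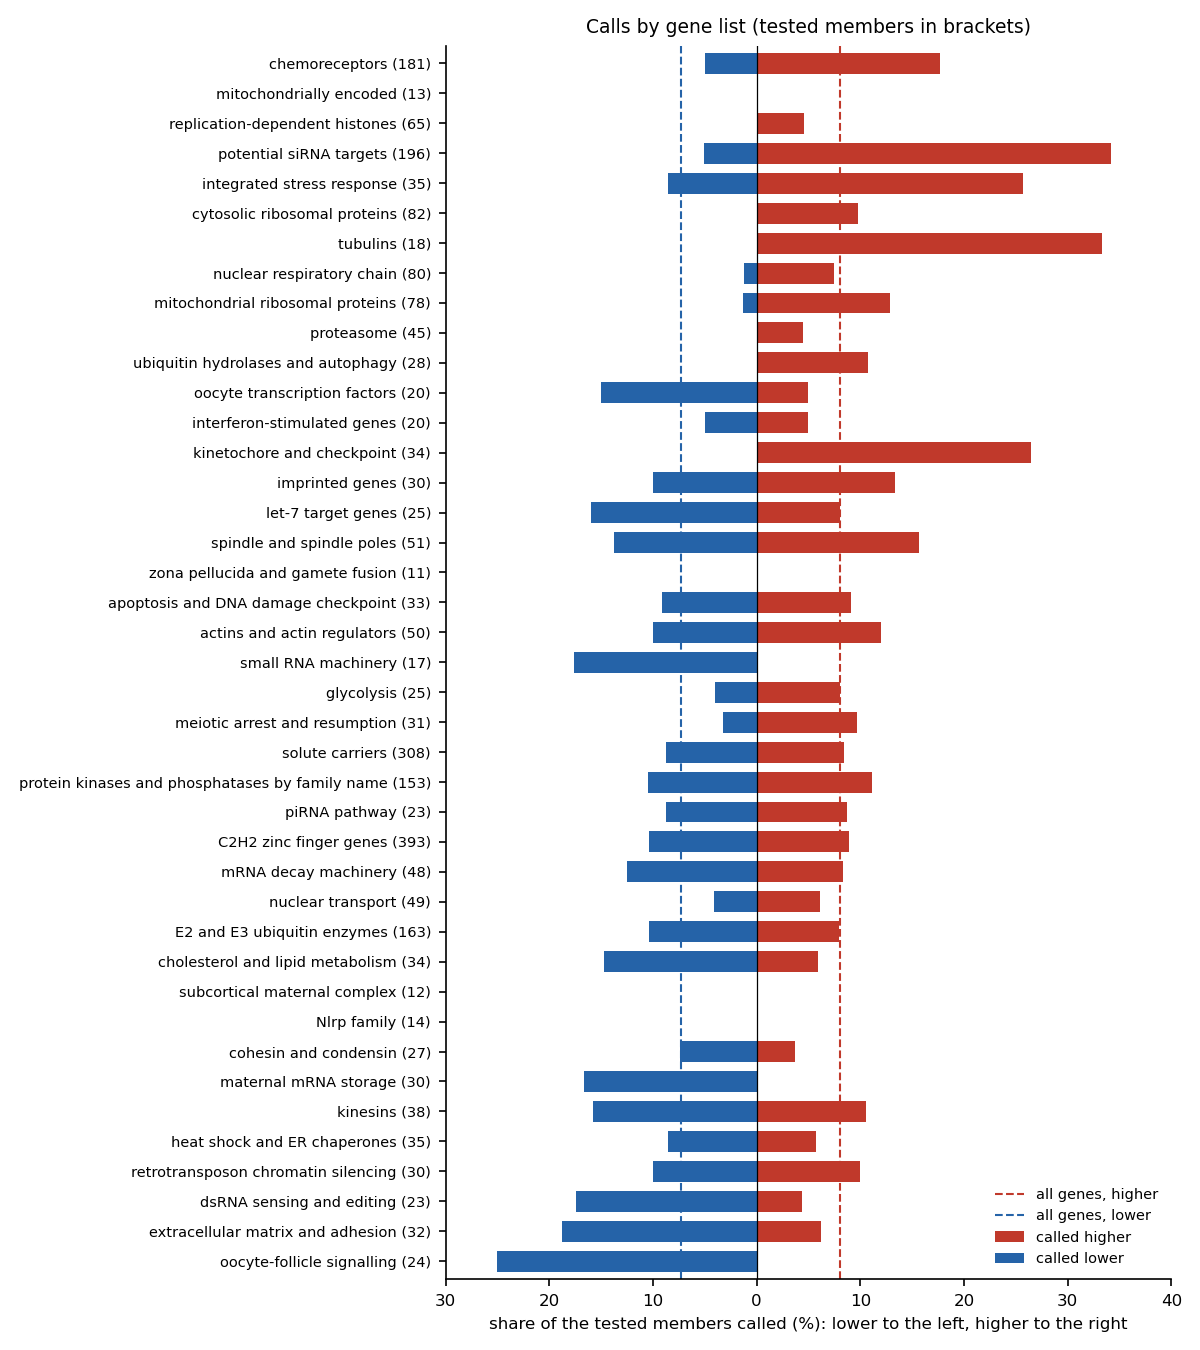
Share of the tested members of each gene list shown that was called lower (blue, to the left) and higher (red, to the right) in ΔMT/ΔMT, in percent, ordered from the highest median log2 fold change at the top to the lowest at the bottom; the number of tested members is in brackets. Dashed lines mark the shares of all genes tested, 8.06% higher and 7.3% lower; siRNA targets, tubulins, kinetochore and stress-response genes pass the red line by far, and oocyte-follicle signalling and matrix genes the blue one.

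The kinds of transcript differed in the direction of their calls. Of 15392 protein-coding genes, 1228 were higher (7.98%) and 1359 lower (8.83%). Of 3490 processed pseudogenes, which are reverse-transcribed copies of mRNAs, 324 were higher (9.28%) and 71 lower (2.03%), with a median of 0.11. The ratio of rises to falls was also above 1 for unconfirmed TEC models, with 55 higher and 17 lower of 551, and near 1 for long intergenic RNAs, with 118 and 115 of 1331, and antisense RNAs, with 59 and 67 of 1094. Counting ignored strand, so antisense genes share reads with their partners. The number of higher pseudogenes lay between 225 and 395 over single omissions and was 145 with a filter at 5 CPM, and that of lower ones was 30 without wild-type replicate 1, with 7 omissions moving it by over 1.5 times.

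To see how far the pseudogene rises stand for single genes, each was matched to the coding gene most like it, at 80% identity or more over at least 50% of its length. A match was found for 3229 of 3490, and in 1836 cases it was at least 95% identical. Of the 324 higher pseudogenes, 297 had a match that was tested, and 275 of these matches were themselves called higher, 1 lower and 21 not called. The 298 with any match, tested or not, go back to 85 coding genes, of which 64 were called higher. Of 585 pseudogenes whose match was called higher, 275 (47.0%) were called higher too, with a median of 0.64, and of 122 whose match was called lower, 29 (23.8%) were lower, with a median of −0.44. Of the 2513 whose match was not called, 21 were higher and 21 lower, 0.836% each. Since reads were split among the places they map to, a coding gene and its copies share counts, and these pairs are not independent measurements.

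A few families held many of the rises. Gapdh and its annotated copy Gm10358 were the best match of 153 tested pseudogenes, of which 112 were higher; for Ppia, a prolyl isomerase, it was 24 of 25 and for Rps23 11 of 12. Without the pseudogenes of these 4 genes, 177 of 3300 were higher (5.36%) and 66 lower (2%). A sum over a coding gene and the tested pseudogenes that match it best depends less on how shared reads were split among them. With its 104 pseudogenes Gapdh went from 74.6 to 226 CPM (3.04-fold), of which the coding gene itself held 3.75 and 15.8 CPM. Likewise Ppia with its copies went from 36.2 to 105 CPM (2.89-fold), Rps23 from 27.1 to 80.1 CPM (2.95-fold), Tuba1b from 166 to 352 CPM (2.12-fold), Hsp90ab1 from 450 to 900.1 CPM (2.002-fold) and Dppa5a, a gene of pluripotent cells, from 40.2 to 169 CPM (4.20-fold). These families were chosen after their values were seen. Among coding genes with at least 10 CPM in wild type, the 187 matched by 3 or more tested pseudogenes were called higher in 12.8% and lower in 5.35% of cases, and the 6608 matched by none in 6.83% and 13.8%.

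**Figure D4:**
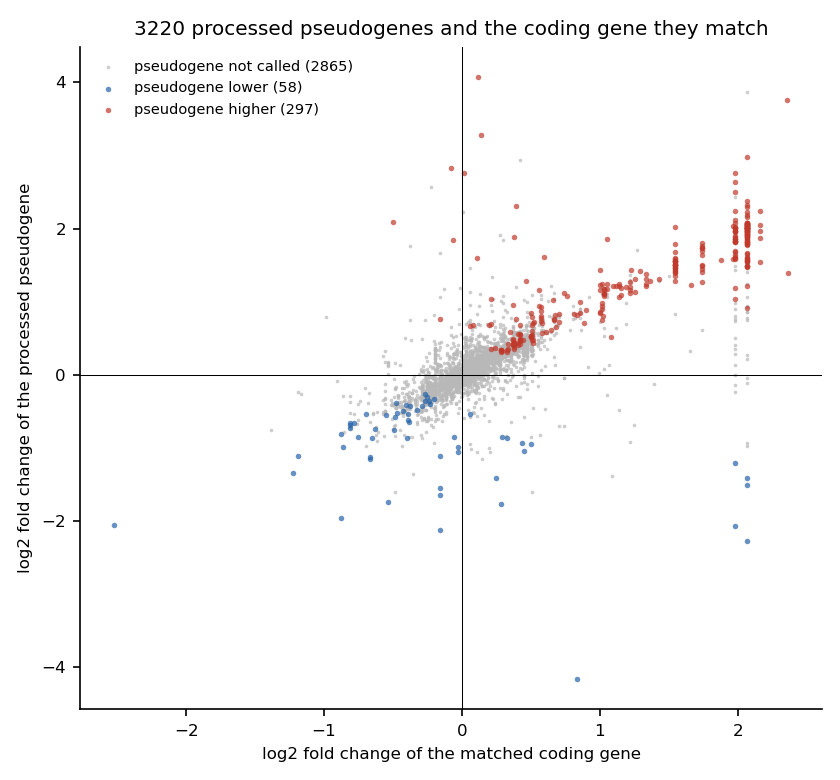
Log2 fold change (ΔMT/ΔMT minus wild type) of each processed pseudogene (vertical axis) against that of the coding gene it matches (horizontal axis); each dot is 1 of the 3220 pseudogenes with a tested match, red if the pseudogene was called higher (297), blue if lower (58) and grey if not called. Red dots lie mostly where the coding gene also rose; the vertical rows of dots near 2 are the copies of Gapdh and Gm10358.

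Calls also differed with the length of the transcript. Among coding genes with at least 10 CPM in wild type, those called lower had a median transcript of 4444 bases and a 3′ untranslated region of 1797 bases, those called higher of 3443 and 1369 bases and those not called of 3362 and 1226 bases. Base composition differed little, with a median GC content of 48.5%, 48.0% and 49.0%. Falls grew more frequent with length: 4.75% of the 800 genes with transcripts under 1500 bases were called lower, 8.43% of 2229 from 1500 to 3000 bases, 14.1% of 2538 from 3000 to 5000 bases and 20.01% of 2004 of 5000 bases or more. Rises were at 8.38%, 7.13%, 7.37% and 6.14% in the same bins, and the median log2 fold change went from 0.07 to −0.14. In single libraries, the median of genes with 5000 bases or more, relative to wild type, was −0.09, −0.15, −0.18 and −0.14 in ΔMT/ΔMT. A wild-type library set against the other wild-type libraries gave 0.04, 0.04 and −0.08. The ΔMT/ΔMT values thus lay below all 3 wild-type values, by a narrow margin for replicate 1, and for short transcripts the groups overlapped. Length is a property that RNA quality and amplification can also act on, and the part of either in these values was not tested. The length bins were set after the fold changes were known.

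**Figure D5:**
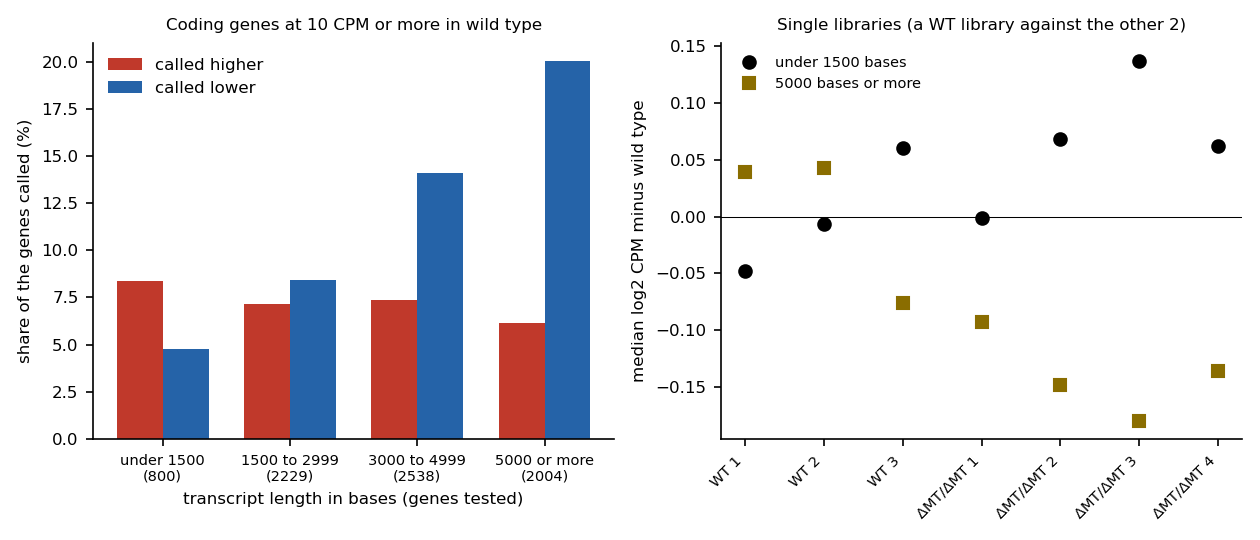
Left, share of coding genes called higher (red) and lower (blue) in ΔMT/ΔMT, in percent, by the length of the longest transcript in bases, for genes with at least 10 CPM in wild type; the lower calls rise from 4.75% to 20.01%. Right, median log2 CPM minus wild type of genes with short (black dots) and long (brown squares) transcripts in each library, where each WT library is compared with the other WT libraries; long transcripts lie lowest in ΔMT/ΔMT replicate 3, at −0.18.

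The largest rises and falls among well expressed genes were in genes of varied function. Pla1a, a phospholipase, was at 14.0, 10.5 and 9.67 CPM in wild type and at 65.8, 50.4, 60.5 and 59.0 CPM in ΔMT/ΔMT. Each mutant library had over 3 times the highest wild-type library (2.37, SE 0.16, adjusted p = 2.45e-05). Unnamed gene models led the rises, Gm42436 from 2.93 ± 0.329 to 22.5 ± 1.76 CPM, Gm43769 from 52.2 ± 7.70 to 248 ± 16.6 CPM and Gm9817 from 4.29 ± 1.01 to 25.7 ± 0.905 CPM. Gm45645, which overlaps Erc2 on the other strand, rose from 8.31 ± 1.44 to 56.1 ± 6.07 CPM while Erc2 fell from 31.5 to 19.1 CPM. The largest falls, of genes with at least 20 CPM in a group, were those of the pseudogene Olfr1300-ps1 (22.0 to 3.85 CPM on average, −2.52) and of Cobl, given above. Among the others, Cd200, an immune inhibitory ligand, went from 26.6 ± 2.16 to 5.87 ± 1.10 CPM, Plek, a phosphoprotein of platelets, from 27.5 ± 2.96 to 6.20 ± 1.37 CPM, Tnfrsf21, a death receptor, from 23.6 ± 5.26 to 5.69 ± 1.26 CPM and Entpd1, an enzyme that degrades extracellular ATP, from 27.6 ± 3.13 to 7.37 ± 0.795 CPM. Bhlhe41, a repressor of the circadian clock, fell from 35.6 ± 5.204 to 9.75 ± 2.04 CPM. By difference of level, Akap12, an anchor of protein kinase A (729 ± 68.6 to 1364 ± 161 CPM), and Khdc1a (389 ± 40.0 to 910 ± 61.0 CPM) were among the 4 largest rises, and the kinase Wnk1 (1325 ± 62.9 to 1002 ± 70.7 CPM) among the 4 largest falls.

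Some calls lay side by side on a chromosome or together on unplaced scaffolds, and these groups were picked after their values were seen. All 9 tested genes of the Zscan4 cluster (chr7:10794242-11614112), known for expression in 2-cell embryos and in a fraction of embryonic stem cells, were called higher, by 1.74- to 7.51-fold. Zscan4d was at 2.22, 1.78 and 2.49 CPM in wild type and at 15, 20.8, 18.1 and 11.0 CPM in ΔMT/ΔMT. Replicate 4 was the lowest mutant library here as for the rest of the cluster, but all lay above wild type (2.90, SE 0.26, adjusted p = 6.14e-05). The members are near-identical and share reads, so the 9 rises may stand for fewer; summed, the cluster went from 22.9 to 65.7 CPM, and 5 to 9 of the genes were called over all alternatives. Of 20 tested genes on 4 unplaced scaffolds of chromosome 1, 16 were higher, by 2.24- to 3.70-fold, and 0 lower. The sum of the 20 went from 147 to 396 CPM. Whether these genes share reads was not tested, so the 16 rises may stand for fewer. Of the 986 genes tested on the X chromosome, 98 were higher (9.94%) and 48 lower (4.87%), beside 8.06% and 7.3% of all genes. Chromosomes 10 and 18 leaned the other way, with 6.94% and 7.53% higher and 10.8% and 11.5% lower. Other runs of called genes held at most 5 neighbours, such as Olfr1178, Olfr1196, Olfr1197, Olfr1198 and Olfr1200 on chromosome 2, all higher, and Zc3h12d, Tab2, Ust and Sash1 on chromosome 10, all lower.

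The ΔMT/WT library, which has 1 ΔMT allele, is a single sample, so it was described and not tested. Of the 1866 genes called higher in ΔMT/ΔMT, 1064 (57.0%) lay above all 3 wild-type libraries in it, beside 29.1% of all genes tested, with a median difference of 0.23 on the log2 scale. Of the 1690 called lower, 802 (47.5%) lay below all 3, beside 27.7% of all genes, with a median of −0.11. These shares use the same wild-type libraries as the calls. On the same scale the medians in ΔMT/ΔMT were 1.07 and −0.68.

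The SOM/SOM oocytes of the same run show where ΔMT/ΔMT differs from a mutant with less Dicer1. Both comparisons with wild type share the wild-type libraries, so differences between the mutants are taken from the direct test. That test uses the same ΔMT/ΔMT libraries as the calls, so the split of called genes below is not independent of them. The genes named below were also picked for lying closer to wild type in SOM/SOM than in ΔMT/ΔMT. SOM/SOM and ΔMT/ΔMT differed in 1702 of 23151 genes (7.35%); Dicer1 was at 49.9 ± 6.96 CPM (SD, n = 3) in SOM/SOM. Of the 3556 genes called in ΔMT/ΔMT, 2891 did not pass the test between the mutants, and 586 lay farther from wild type in SOM/SOM. The other 79 differed from ΔMT/ΔMT in the opposite direction, toward wild type or past it. Among these 79, 37 were higher and 42 lower in ΔMT/ΔMT. Gcm2, a transcription factor of the parathyroid, was at 18.2, 17.4 and 13.6 CPM in wild type, at 5.24, 5.10, 5.24 and 6.30 CPM in ΔMT/ΔMT and at 15.4 CPM on average in SOM/SOM. Its level in SOM/SOM was above that in ΔMT/ΔMT (log2 fold change of SOM/SOM against ΔMT/ΔMT 1.45, adjusted p = 0.0305). Tmem267 showed the same order, from 15.3 ± 2.77 to 7.42 ± 0.975 CPM and 15.7 CPM on average in SOM/SOM (1.06, adjusted p = 0.00269), and so did Abtb2 and Mylip, at 1.31 and 1.23. Without ΔMT/ΔMT replicate 1, 2 or 3 the genes that differed numbered 1073, 899 and 1123.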

How the data were processed

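GV oocyte RNA of 22 samples was sequenced after amplification (Ovation RNA-seq kit V2), and the 7 single-end libraries of both groups are compared here. The authors mapped reads with STAR 2.5.3a to GRCm38 and deposited, per gene of GENCODE M15, expected counts: featureCounts gave a read mapped to several places or overlapping several genes a fraction at each, without regard to strand. The 11 columns of the paired-end run were not used. Such counts were rounded to whole numbers here. Genes with low counts were removed by filterByExpr (minimum count 10, minimum total 15), libraries were scaled by TMM, and edgeR 4.0.16 (R 4.3.3) was fitted to the 10 single-end libraries of wild type, ΔMT/ΔMT and SOM/SOM, which share 1 estimate of the spread, with its quasi-likelihood F test and Benjamini-Hochberg adjustment at 0.05. Standard errors are the log2 fold change divided by the square root of F. The fit was tested on simulated counts.

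Members and gene lists were chosen with earlier results of these data known. Genes are named by rule: Dicer1; in each list the largest called rise, the largest called fall (each with at least 1 CPM in a group and no overlap) and the highest wild-type level, or all of a list of at most 12; the 8 largest rises and 8 largest falls with at least 20 CPM in a group; the 4 largest called differences of CPM in each direction; and the 4 genes farthest from wild type in ΔMT/ΔMT alone by the test against SOM/SOM, with at least 5 CPM in a group. All further genes named were chosen after their values were seen. Alternatives (other normalisations and filters, DESeq2 1.42.0, 2 groups only, single libraries left out) have their effect given in the closing section. Pseudogenes were matched with BLAST+ 2.17.0 to GENCODE M21 coding transcripts, from which transcript lengths also come. Some items are not reported here.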

Additional observations from a re-analysis of the deposited data

Results flagged for a closer look

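In groups of 4 to 10 libraries, a value was picked out where the highest or lowest library was separated from the rest by more than Dixon's 95% limit for the share of the group's range. Of 160 values checked in the ΔMT/ΔMT libraries, 12 met it; chance gives about 1 in 20. No explanation was tested for any of them. Replicate 4 held 5 of the 12: Tdrd1 was at 1482 CPM there (1417 to 1426 CPM in the others), Fbxo40 at 39.76 CPM (31.49 to 32.84), Gcm2 at 6.302 CPM (5.104 to 5.239), Abtb2 at 4.729 CPM (2.895 to 3.087), and the rRNA-like gene Gm42418 took 0.7749% of counts (0.5157% to 0.5596%). In replicate 1, Oas3 was at 25.63 CPM (18.39 to 18.9 in the others), Cnot1 at 440.6 CPM (409.1 to 414.4), Kif23 at 557.6 CPM (511.9 to 515.2) and Sh3bp4 at 5.923 CPM (7.426 to 7.732). In replicate 2, Hsp90ab1 was at 831.3 CPM (867.5 to 868.4), and in replicate 3 Tubb6 was at 554.9 CPM (607.3 to 615.4) and Atp5g3 at 9.023 CPM (10.87 to 11.22).

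The ΔMT/WT library, which no test uses, held values beyond those of wild type for many called genes: 57.02% of the genes called higher lay above all wild-type libraries in it and 47.46% of those called lower lay below them, beside 29.13% and 27.68% of all genes tested.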

How the results depend on the processing

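All alternatives that were planned could be run, and no called result changed its direction. With a fold of at least 2 required as well, 1486 genes were called between ΔMT/ΔMT and wild type, 26 siRNA targets, and 632 genes between SOM/SOM and ΔMT/ΔMT; by DESeq2 the last count was 2776. Leaving out single libraries gave 2203 to 4858 genes called against wild type, 62 to 96 siRNA targets and 899 to 1806 genes between the mutants, and Dicer1 log2 fold changes of −1.11 to −0.99. With ΔMT/ΔMT and wild type alone 5307 genes were called (3493 of the 3556), and 4391 by DESeq2 (3451 of the 3556). The share of rises among calls was 52.5%, and it was 59.9% without ΔMT/ΔMT replicate 3 and 48.9% with both groups alone. Of 97 list counts, 458 of 1843 values moved by over 1.5 times. The called genes named by rule and the rest of the Zscan4 cluster, 101 genes, gave 1799 values, of which 124 lost the call. Of 967 values for the 54 genes named by rule that were not called, 18 gained it and 59 had the other sign without a call. The cause was not tested. Replicate numbers are shared by the groups' labels, but same-numbered libraries did not deviate together (correlations of 0.03, 0.01 and −0.03); with a replicate block, 2519 genes, 67 siRNA targets and 1187 genes between the mutants were called, and Dicer1 was at −1.09 (adjusted p = 0.000959). Depth limits genes under about 1 CPM, and with a floor of 3 counts 64 of the genes called higher were at or under it in all wild-type libraries.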
